A study of Mus musculus with 28 samples.

Results

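The S100 genes described here are S100a1, S100a4, S100a6, S100a10, S100a11, S100a13, S100a14, S100a16 and S100g. They were chosen by name, with earlier results of these data known. All 9 were found in each of 3 expression tables, among 29413 genes in the first and 55416 in each of the others. Expression was measured by RNA-seq in organoids of the small intestine from wild-type C57BL/6 mice, epithelial cultures that grow from crypts in a gel. In the first table (the BMP table) 4 samples were untreated, 4 received recombinant BMP2, and 3 each received BMP3, BMP4, BMP5 or BMP7. In the second, 3 samples were untreated and 3 received recombinant Tgfb, and every ligand was given at 500 ng/ml for 24 h. All organoids, controls included, came from crypts first grown without any added ligand of this superfamily. The third table held 1 sample of duodenal mesenchymal cells labelled fresh and 1 labelled immortalised and sorted, both labelled Pdgfra positive and from PdgfraH2BeGFP mice, whose Pdgfra-expressing nuclei carry green fluorescent protein. The immortalised cells carried the HPV16 E6 gene by retroviral transduction, were selected with puromycin and were sorted for fluorescence. Nothing in the labels says which organoid samples came from separate animals, so p-values measure the spread between these samples, which may be partly technical.

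S100 proteins are small EF-hand calcium-binding proteins. Most act as dimers that change shape on binding calcium and then attach to partner proteins, among them annexins, which hold on to membranes, and cytoskeletal proteins. S100a10 is an exception that no longer binds calcium and works in a complex with annexin A2 (Anxa2). S100g, the intestinal calbindin, is a calcium buffer rather than a sensor: in absorptive enterocytes of the duodenum it carries calcium from the apical channel Trpv6 to the basolateral pump Atp2b1, under the vitamin D receptor Vdr. BMP ligands come from the mesenchyme and are known to be most active toward the villus tip.

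In the annotation of mouse genome build GRCm38, 8 of the 9 genes lie within a run of 14 S100 genes on chromosome 3, and S100g lies on chromosome X. RefSeq promoter windows of GRCm38.p6 were matched for 7 of the 9 (S100a10 and S100a14 were not among them), giving 8 windows of 250 bases before a gene's start because S100a16 has more than 1 start. The windows of 4 genes are shown because their transcripts take different courses in the results: S100a11 and S100a6 rose with BMP2, BMP4, BMP5, BMP7 and Tgfb, S100a4 is the lowest of the 9 in untreated organoids, and S100g was called with BMP4 and with no other ligand. Each is printed 5′ to 3′ up to the gene's first annotated exon, from chr3:93520246-93520487 (plus strand), chr3:90612644-90612881 (plus), chr3:90603520-90603769 (plus) and chrX:162964600-162964849 (minus). Capitals mark matches to the motifs searched on both strands: the AP-1 motif TGANTCA, the core of the SMAD-binding element (GTCTG and its reverse complement), the GC-rich SMAD motif GGCGCC, the TEAD motif with letters GGAATG, and the TATA box as spelled by TATAAA. None of the matches overlap each other.
S100a11: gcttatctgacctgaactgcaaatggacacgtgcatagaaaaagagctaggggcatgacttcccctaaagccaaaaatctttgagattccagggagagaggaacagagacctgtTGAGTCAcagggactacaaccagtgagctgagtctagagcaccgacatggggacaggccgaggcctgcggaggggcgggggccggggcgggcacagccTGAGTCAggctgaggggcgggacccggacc
S100a6: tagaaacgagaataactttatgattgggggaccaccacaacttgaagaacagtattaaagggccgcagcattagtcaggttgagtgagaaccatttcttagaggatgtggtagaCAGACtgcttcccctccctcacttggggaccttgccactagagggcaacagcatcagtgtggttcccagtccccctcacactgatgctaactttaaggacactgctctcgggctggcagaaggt
S100a4: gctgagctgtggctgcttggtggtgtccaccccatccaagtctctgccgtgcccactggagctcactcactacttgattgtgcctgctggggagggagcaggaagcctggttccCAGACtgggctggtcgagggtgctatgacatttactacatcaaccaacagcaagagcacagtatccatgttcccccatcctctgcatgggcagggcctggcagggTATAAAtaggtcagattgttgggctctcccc
S100g: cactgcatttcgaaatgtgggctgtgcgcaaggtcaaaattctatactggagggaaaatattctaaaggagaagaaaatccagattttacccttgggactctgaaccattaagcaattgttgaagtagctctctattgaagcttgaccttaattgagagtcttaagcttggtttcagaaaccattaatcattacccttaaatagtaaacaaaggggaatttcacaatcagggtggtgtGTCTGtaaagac
The S100a11 window held 2 matches to the AP-1 motif, 136 and 38 bases before the start, and none to the others. Of 32851 RefSeq windows of the same length, 6.75% held that motif. The windows of S100a6, S100a4 and S100g each held 1 SMAD core, 136, 136 and 12 bases before the start, a match that 42.2% of all windows held. S100a4 also had a TATAAA match 31 bases before its start, found in 12.4% of windows. Among the windows not printed, the second S100a16 start had 1 AP-1 match and 2 SMAD cores. S100a1 and S100a13 lie head to head on opposite strands and share the bases of 1 GGCGCC match, a motif held by 9.59% of windows. No window of these genes held GGAATG, which 12.6% of all windows held. These matches describe letters only and do not show binding.

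Several of these transcripts share sequence or position with neighbours, which limits how exactly reads can be assigned. Gm12854, annotated as a processed pseudogene, shared 84.6% of its 31-base words with S100a11, and its normalized count moved with that of S100a11, from 838.5 ± 44.0 in untreated organoids to 7648 ± 973 under BMP2 (SD, n = 4 each). In the BMP table, between 22.5% and 27.5% of the sum of S100a11 and its copies stood under the copies in every sample, and for the TPM sum of the Tgfb experiment the share was 0.603% to 2.13%. Gm42674, which overlaps S100a4, shared 65.4% of its words and was at 0 in all 4 controls. With copies added to S100a11 and S100a4, an alternative chosen after the data were seen, S100a11 changed by a log2 of 3.16 with BMP2, close to 3.15 for its own row. No call of either gene was lost or gained in the BMP table, nor that of S100a11 in the Tgfb table. S100a4 under Tgfb, which was below the filter, had a log2 change of 1.64 alone and 2.36 with Gm42674, which held 15.4% to 62.3% of the sum in Tgfb samples. Exons of S100a1 and S100a13 reach into each other's start region on opposite strands, and whether counting used strand is not given in the sources used here, so reads there cannot be told apart.

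Per sample of the BMP table, 21356372 to 24786005 reads could be recovered from the values, with each read counting for 0.826 to 1.28 normalized counts. Normalized counts summed to 19885612 ± 702378 in untreated organoids, to 27350549 ± 1181883 under BMP2 (SD, n = 4 each) and to 26232395 ± 706629 under BMP4 (SD, n = 3). The depth of the other tables, which are in TPM (a share of all transcripts corrected for length), is unknown. Epithelial markers were high in every organoid sample, with Epcam at 20825 ± 1595 normalized counts in untreated organoids (SD, n = 4). The 7 epithelial markers summed to 101950 to 114120 in controls, 221030 to 302900 under BMP4, 181650 to 287410 under BMP5, 218330 to 301770 under BMP7 and 543720 to 684140 under BMP2. This sum, of which Krt8 was the largest part, was highest under BMP2, as the S100a genes described next were. Its range under BMP4 overlapped those under BMP5 and BMP7. With BMP4, however, S100a4 and S100a13 were not called, and S100a11 had a mean of 3983, against 8300 with BMP5 and 8580 with BMP7. The part of the sum in those results was not tested. Not every marker followed the sum: Cdx2 had a mean of 2128 in controls, 1635 under BMP2 and 3800 under BMP4, and Vil1 was highest under BMP4 (45067, against 29000 under BMP2). Of the mesenchymal markers, Dcn and Lum were at 0 or not listed in the BMP table. Libraries were sequenced in more than 1 run and samples are not assigned to runs, so a run effect and the groups cannot be told apart.

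Against untreated organoids, 8 of the 9 S100 transcripts rose under BMP2 and 8 under BMP5, while 7 rose under BMP4 and 7 under BMP7, and none fell. Without BMP5 replicate VI the BMP5 count was 5, with S100a1, S100a4 and S100a13 lost, whereas the BMP2 count stayed at 8 whichever replicate was left out. The test was limma on log2(value + 1), called at a Benjamini-Hochberg adjusted p under 0.05 over 14746 genes with a mean of at least 10. These counts stand beside a broad response: of all tested genes, BMP2 changed 75.1% (36.8% higher, 38.4% lower), BMP4 65.1% (33.7% higher, 31.4% lower), BMP7 32.4% (19.2% higher, 13.2% lower) and BMP5 26.3% (16.5% higher, 9.87% lower). For BMP2, BMP4, BMP5 and BMP7, the median log2 change over the 9 transcripts was 3.08, 1.64, 1.31 and 1.49. Over all tested genes the corresponding medians were -0.03, 0.04, -0.03 and -0.05. With BMP3 no member was called, nor was any gene (0% called by limma, 110 genes at an unadjusted p under 0.05, 0 by edgeR and 1 by DESeq2), and the median over the 9 was 0.02. Every comparison with control uses the same 4 control samples. All 9 passed the filter on low values, S100a4 through the treated groups, because its control mean lay under 10.

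**Figure D1:**
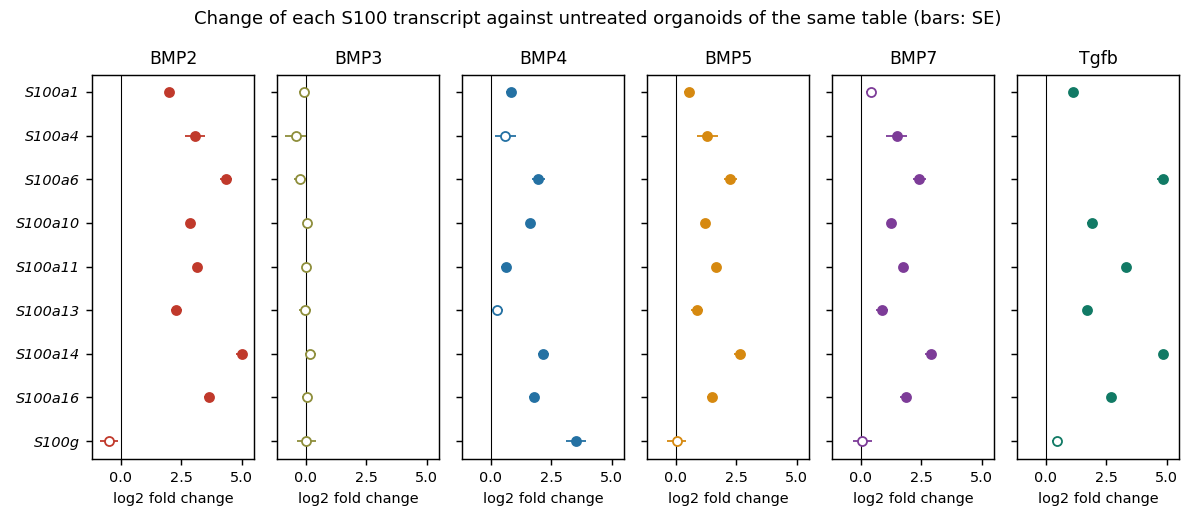
Log2 fold change of each S100 transcript against untreated organoids of the same table (x axis, limma estimate on log2(value + 1), bars are SE) for each ligand (panels). Filled points passed the adjusted p threshold and open points did not. The S100a genes lie right of 0 for BMP2, BMP4, BMP5, BMP7 and Tgfb, BMP3 points lie near 0, and S100g is filled with BMP4 alone. S100a4 was below the filter in the Tgfb table and has no point there.

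S100a6, S100a10 and S100a11 were the most abundant of the S100a genes in organoids and are the ones best known for annexin binding. S100a6 (calcyclin) stood at 1900, 1820, 2150 and 3110 normalized counts in the 4 controls and at 49000, 47100, 38000 and 45800 with BMP2. It reached 7060, 7200 and 12600 with BMP4, 6700, 11800 and 14700 with BMP5, and 10700, 10400 and 14400 with BMP7. All samples of these 4 ligands lay above all controls, and BMP2 lay above every other sample. S100a6 rose 20.4-fold with BMP2 (log2 4.35 ± 0.25 SE, limma adjusted p = 1.82e-11) and 3.93-fold with BMP4 (log2 1.97 ± 0.27, adjusted p = 3.79e-06). With BMP3, at 1660, 1450 and 2710, S100a6 overlapped the controls.

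S100a10, the calcium-insensitive partner of Anxa2, stood at 3220, 2810, 2560 and 2940 normalized counts in controls and at 27100, 20700, 16600 and 19900 with BMP2. BMP4 gave 9070, 9530 and 8240, above the 5370, 7550 and 7100 of BMP5 and the 6380, 7160 and 6970 of BMP7. Its level was thus second highest with BMP4, with no overlap between BMP4 and BMP7 samples, an order that did not hold with quantile normalization (log2 -0.0021 for BMP4 against BMP7) and shrank to a log2 of 0.057 with scaling to the same total (adjusted p = 0.747). The change was 7.22-fold with BMP2 (log2 2.85 ± 0.13 SE, limma adjusted p = 9.71e-13) and 3.11-fold with BMP4 (log2 1.64 ± 0.14, adjusted p = 9.99e-09).

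S100a11, which binds annexin A1, had controls at 2820, 2160, 2400 and 2770 normalized counts and BMP2 samples at 23200, 25000, 19600 and 22200. BMP5 gave 5990, 8510 and 10400 and BMP7 gave 8550, 7190 and 10000. BMP4 gave only 3460, 3370 and 5120, above the controls and below every BMP5 and BMP7 sample. S100a11 rose 8.88-fold with BMP2 (log2 3.15 ± 0.17 SE, limma adjusted p = 1.13e-11) and 1.55-fold with BMP4 (log2 0.63 ± 0.19, adjusted p = 0.00657). The BMP4 call was lost when samples were scaled to the same total (log2 0.23, adjusted p = 0.252), with quantile normalization (log2 0.24, adjusted p = 0.246) and without BMP4 replicate VI (log2 0.44, adjusted p = 0.0611).

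S100a14, an S100 protein of epithelia, had the largest change of the 9 with BMP2. Its normalized counts were 388, 334, 280 and 364 in controls and 12800, 11800, 8490 and 10700 with BMP2, a 31.8-fold rise (log2 4.99 ± 0.22 SE, limma adjusted p = 7.01e-13). BMP4 gave 1280, 1440 and 1970, BMP5 gave 1260, 2850 and 2640, and BMP7 gave 2300, 2460 and 2880. The 3 ligands raised it 4.52-fold, 6.23-fold and 7.46-fold. S100a16 stood at 419, 356, 396 and 448 in controls, at 5710, 4770, 3750 and 6640 with BMP2, at 1240, 1180 and 1880 with BMP4, at 779, 1270 and 1550 with BMP5, and at 1380, 1300 and 1750 with BMP7. It rose 12.6-fold with BMP2 (log2 3.66 ± 0.20 SE, limma adjusted p = 8.87e-12) and between 2.85-fold and 3.62-fold with the other 3. For both genes, no sample of these 4 ligands overlapped the controls.

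**Figure D2:**
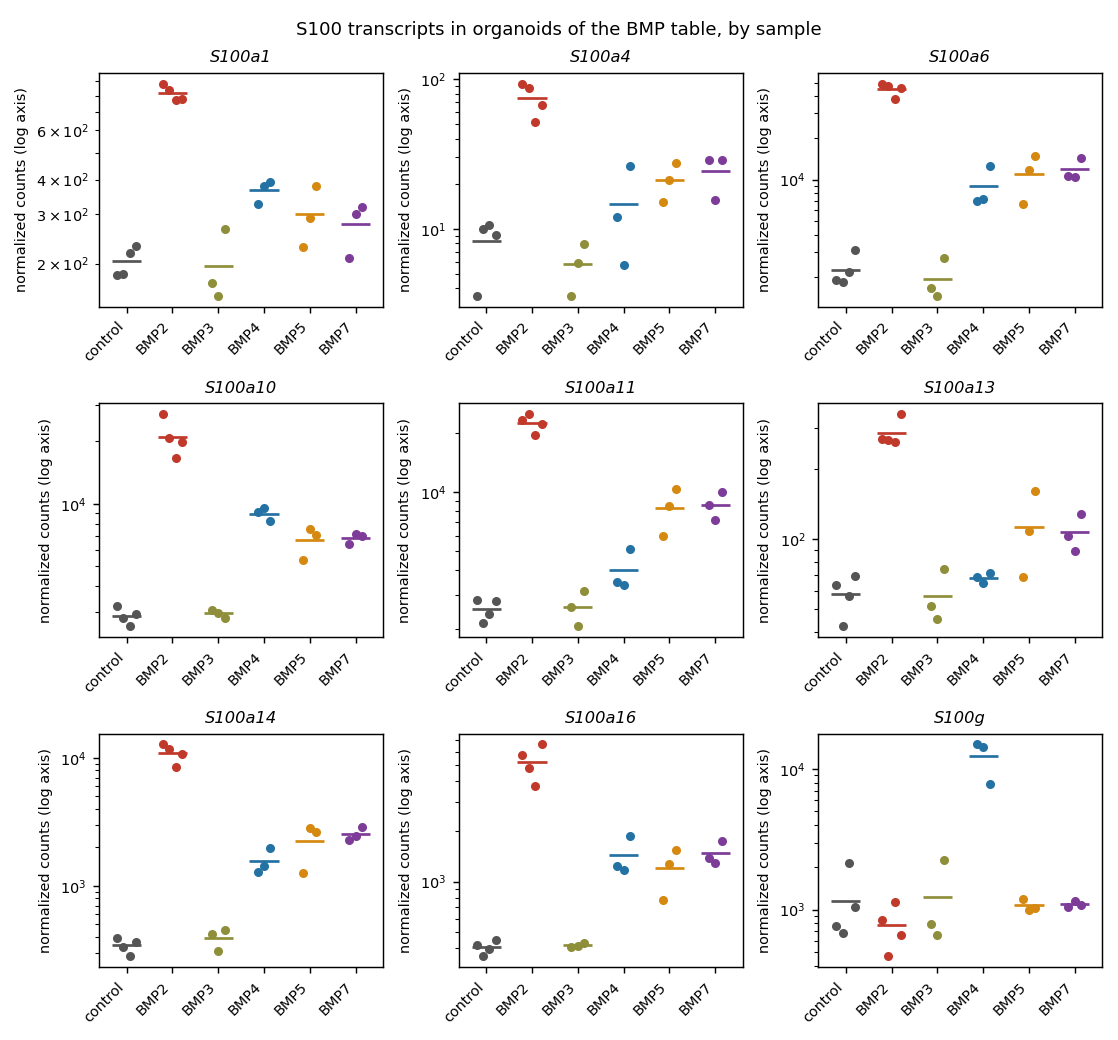
Normalized counts (y axis, log scale) of the 9 S100 transcripts in each sample of the BMP table, by ligand (x axis). Points are samples and horizontal lines are group means. For the 8 S100a genes every BMP2 point lies above every other point, while for S100g the 3 BMP4 points, at 7860 to 15000, stand above the rest. The share of all genes with such separation was not counted.

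S100a1, S100a13 and S100a4 were less abundant. S100a1, best known from muscle, had 182, 184, 218 and 232 normalized counts in controls and 881, 834, 772 and 780 with BMP2, a 4.01-fold rise (log2 2.0 ± 0.18 SE, limma adjusted p = 6.34e-09). With BMP4 it reached 328, 378 and 391, above all controls (log2 0.84 ± 0.19, adjusted p = 0.000767), a call lost with scaling to the same total (log2 0.44, adjusted p = 0.0536). BMP5 samples, at 230, 291 and 380, overlapped the controls and were called narrowly (log2 0.53 ± 0.19, adjusted p = 0.0467), and 9 of 19 alternatives ended that call. BMP7 samples, at 210, 300 and 320, were not called (log2 0.42 ± 0.19, adjusted p = 0.0997), except without BMP7 replicate II (adjusted p = 0.0364). With the replicate number as a block, the BMP7 change passed (log2 0.47, adjusted p = 0.0247).

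S100a13, which takes part in the release of Fgf1 from cells, had 63.9, 42.3, 56.8 and 69.4 normalized counts in controls and 271, 267, 262 and 346 with BMP2, a 4.91-fold rise (log2 2.30 ± 0.23 SE, limma adjusted p = 2.93e-08). BMP4 left it at 68.7, 65 and 71.8, overlapping the controls (log2 0.26 ± 0.24, adjusted p = 0.374). BMP5 gave 69.1, 109 and 161, the lowest within the control range (log2 0.89 ± 0.24, adjusted p = 0.0114) and BMP7 gave 103, 89.3 and 129 (log2 0.88 ± 0.24, adjusted p = 0.0101). Both of these calls were lost when replicate VI of the ligand was left out, at adjusted p = 0.108 (log2 0.59) and 0.0628 (log2 0.74). The BMP5 call also ended with only BMP5 and control in the fit (adjusted p = 0.0533).

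S100a4, a partner of nonmuscle myosin known from fibroblasts and leukocytes, was close to the detection limit in controls at 3.55, 9.96, 10.6 and 9.09 normalized counts. BMP2 samples held 93.1, 87, 51.8 and 67.1, an 8.45-fold rise (log2 3.08 ± 0.41 SE, limma adjusted p = 1.55e-06). BMP5 (15.2, 21.3 and 27.4) and BMP7 (29, 15.5 and 28.9) lay above all controls, with log2 changes of 1.31 ± 0.44 (adjusted p = 0.0346) and 1.49 ± 0.44 (adjusted p = 0.0147). BMP4 (11.9, 5.7 and 26.3) overlapped them and was not called (log2 0.61 ± 0.44, adjusted p = 0.239), except without BMP4 replicate III (log2 1.10, adjusted p = 0.0406). The BMP5 call ended with no filter on low values (adjusted p = 0.0703) and without control replicate II, BMP5 replicate III or BMP5 replicate VI (adjusted p = 0.107, 0.0972 and 0.149). The BMP7 call ended without BMP7 replicate II or VI (adjusted p = 0.0664 and 0.0655).

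Markers of the other cell types that carry S100a4 are given beside it. The 8 immune markers summed to 69.2 to 87.1 normalized counts in controls, 91.8 to 186 under BMP2, 142 to 233 under BMP4, 85.8 to 122 under BMP5 and 82.8 to 119 under BMP7. Within this sum Itgam had means of 41.6, 14.2, 150, 34.0 and 36.4 in the same order of groups. The macrophage markers Csf1r (4.32, 35.7, 5.88, 21.0 and 17.8) and Cd68 (22.5, 50.7, 22.2, 40.2 and 36.3) had higher means under BMP2, BMP5 and BMP7, where S100a4 was called, than in controls or under BMP4. Adgre1 (0.22, 0.29, 1.54, 1.20 and 0.30) and Tyrobp (0.21, 0.58, 1.19, 0 and 0) of the same list stayed near 0. These did not follow Csf1r and Cd68 and had their highest means under BMP4. The leukocyte marker Ptprc stood at 6.71 ± 3.04 in untreated organoids and 14 ± 7.3 under BMP2 (SD, n = 4 each). The neutrophil marker Ly6g had means of 1.94, 26.1, 7.43, 7.35 and 14.5 in the same order of groups. S100a8 and S100a9 of its list had means of at most 0.615. Of 8 mesenchymal markers, 6 were listed and summed to 134 to 220 in controls, 70.4 to 93.0 under BMP2, 27.3 to 47.8 under BMP4, 139 to 189 under BMP5 and 69.9 to 108 under BMP7. This sum was lower in BMP2 samples than in controls, but its markers did not move together. In the same order of groups, Vim had means of 149, 34.5, 22.3, 152 and 65.8, and Pdgfrb of 9.39, 0.613, 10.6, 4.86 and 3.71. Pdgfra (0.667, 22.95, 1.94, 4.24 and 3.95) and Col1a1 (5.93, 15.9, 0.4, 10.4 and 12.8) had higher means under BMP2, BMP5 and BMP7 than in controls or under BMP4. Col1a2 had means of 1.54, 4.73, 0.38, 0.617 and 0.304. Of the same list, Dcn and Lum were at 0 or not listed in every group, and Col3a1 was at 0 in controls. Whether these cells had a part in the S100a4 values was not tested. In bulk samples, fewer cells of a type and less RNA per cell cannot be told apart.

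S100g took a different course from the S100a genes. Its normalized counts were 768, 678, 2130 and 1050 in controls and 15000, 14400 and 7860 with BMP4, an 11.5-fold rise (log2 3.52 ± 0.40 SE, limma adjusted p = 4.45e-07). BMP2 (846, 465, 1140 and 663), BMP3 (797, 657 and 2260), BMP5 (1200, 988 and 1030) and BMP7 (1050, 1150 and 1080) overlapped the controls. The replicate numbered IV was the highest of its group among controls, BMP2 and BMP3. The estimates were a log2 of -0.49 ± 0.37 for BMP2 (adjusted p = 0.242), 0.03 ± 0.40 for BMP3, 0.04 ± 0.40 for BMP5 and 0.07 ± 0.40 for BMP7, and missing the threshold does not show that S100g stayed level. With samples scaled to the same total, the BMP2 value passed the threshold (log2 -0.95, adjusted p = 0.0354), under a scaling that moved the median of all genes by -0.45. The BMP2 value also passed with the replicate number as a block (log2 -0.49, limma adjusted p = 0.0388). Same-numbered BMP2 and control samples correlated at 0.195, 0.421 and 0.308 for II, IV and VI, but at 0.018 for III. BMP2 and BMP4 differed directly in S100g by a log2 of -4.01 ± 0.40 (adjusted p = 6.39e-08).

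Of 12 genes of intestinal calcium absorption, 7 passed the filter on low values. With BMP4, 5 rose and 2 fell (median log2 0.76), and with BMP2, 2 rose and 4 fell (median log2 -0.23). Of all tested genes, 33.7% rose and 31.4% fell with BMP4, and 36.8% rose and 38.4% fell with BMP2. Vdr stood at 5142 ± 269 normalized counts in controls (SD, n = 4) and at 15200, 14200 and 13900 with BMP4, a log2 rise of 1.49 ± 0.16 (limma adjusted p = 1.39e-07). With BMP2 it fell to 401, 528, 373 and 568 (log2 -3.48 ± 0.14, adjusted p = 4.74e-13), and it fell with BMP5 (log2 -1.45) and BMP7 (log2 -1.33) as well. Atp2b1 rose with all 4 of these ligands, most with BMP4 at 23900, 21100 and 15500 against 5202 ± 348 in controls (SD, n = 4), a log2 of 1.93 ± 0.12 (adjusted p = 2.83e-10). Trpv6 had 0 to 1.77 in controls and 19, 25.1 and 26.3 with BMP4. Against the floor of 3 reads per library, this was at least 9.12-fold higher for the BMP4 mean and 7.39-fold for its lowest sample. It lay under the filter, and with a mean of at least 1, which it passed through its BMP4 samples, it was called (log2 3.79, limma adjusted p = 0.000131). Calb1, the kidney calbindin, and Cyp24a1, the enzyme that degrades vitamin D, stayed at 5.68 or less in every sample of this table.

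**Figure D3:**
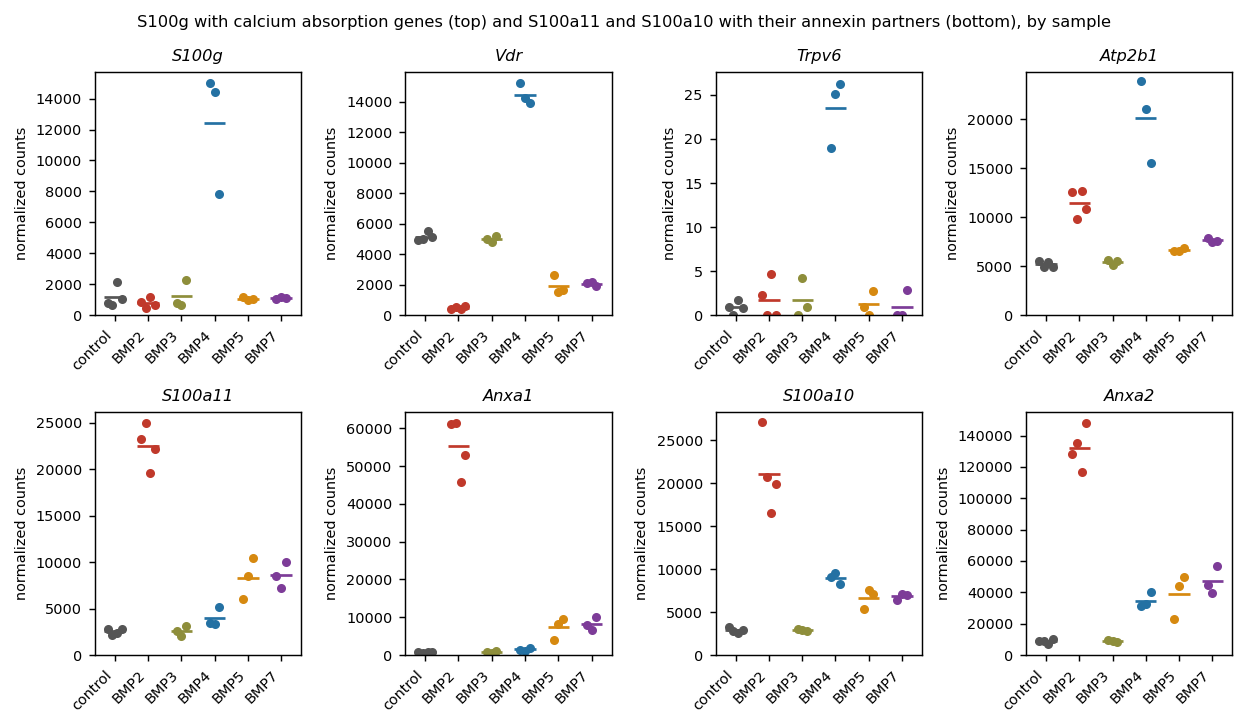
Normalized counts (y axis, linear from 0) by ligand (x axis) for S100g with Vdr, Trpv6 and Atp2b1 (top) and for S100a11 and S100a10 with Anxa1 and Anxa2 (bottom). Points are samples and horizontal lines are group means. The highest points of the top panels are the BMP4 samples, and in the bottom panels BMP2 points stand above the rest.

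The 5 ligands differed for all 9 transcripts (moderated F-test of limma, highest adjusted p = 1.11e-05), beside 84.1% of all tested genes. BMP2 stood above BMP4 for the 8 S100a genes and below it for S100g, so that all 9 were called (66.8% of all genes, 33.4% higher and 33.4% lower). The excess over BMP4 ranged from a log2 of 1.16 ± 0.19 for S100a1 to 2.82 ± 0.23 for S100a14. Against BMP7, BMP2 was higher for the same 8 by 1.40 to 2.09 (62.8% of all genes, 31.4% higher and 31.4% lower), and S100g was not called (log2 -0.56 ± 0.40, adjusted p = 0.233). With the replicate block S100g was called lower with BMP2 (log2 -0.88, limma adjusted p = 0.00275), although replicate III did not pair by number (correlation -0.052). BMP4 and BMP7 differed for 5 of 9 (59.8% of all genes, 28.4% higher and 31.4% lower with BMP4): S100a10 and S100g were higher with BMP4, and S100a11, S100a13 and S100a14 were lower. That count was 2 without BMP4 replicate II, BMP4 replicate III or BMP7 replicate VI, and 3 without BMP7 replicate II or with no filter on low values. Of these, S100g (log2 3.45 ± 0.43, adjusted p = 1.77e-06) and S100a11 (log2 -1.12 ± 0.20, adjusted p = 0.0001) were called under every alternative run. S100a10 (log2 0.39 ± 0.15, adjusted p = 0.0301) lost its call under 8 of 18 alternatives, among them quantile normalization, where its sign turned (log2 -0.0021). S100a13 (log2 -0.62 ± 0.26, adjusted p = 0.0482) lost its call under 8 of 18, and S100a14 (log2 -0.72 ± 0.25, adjusted p = 0.0181) lost it without BMP4 replicate II or III or BMP7 replicate VI (adjusted p = 0.0822, 0.0551 and 0.0663). S100a1 was higher with BMP4 than with BMP7 only with the replicate block (log2 0.42, adjusted p = 0.0352) and with quantile normalization (log2 0.58, adjusted p = 0.0190). S100a6 was lower with BMP4 under scaling to the same total, quantile normalization and without BMP4 replicate VI (log2 -0.77, -0.90 and -0.71, adjusted p = 0.0231, 0.0134 and 0.0486), and S100a4 under the first and the last of these (adjusted p = 0.0350 and 0.0157). BMP5 and BMP7 were not told apart for any of the 9 (0.0136% of all genes, 0.00678% in each direction), with differences between -0.34 ± 0.23 for S100a16 and 0.11 ± 0.20 for S100a1, which does not show that these ligands act alike.

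In the second table, 7 of 8 tested members rose with Tgfb and none fell, beside 64.3% of all 7880 tested genes called, 31.4% higher and 32.9% lower. The median log2 change was 2.31 over the 8, against -0.01 over all tested genes. The 7 epithelial markers summed to 2732 to 2994 TPM in controls and 8592 to 11161 with Tgfb (Krt8 had means of 734 and 3955, Cdx2 of 69.4 and 44.1), and their part in these results was not tested. S100a6 went from 100, 131 and 173 TPM in controls to 2983, 3800 and 4760 with Tgfb, a 28.5-fold rise (log2 4.83 ± 0.24 SE, limma adjusted p = 5.19e-06). S100a14 went from 14.8, 16.7 and 22.8 TPM to 462, 558 and 596 (log2 4.84 ± 0.17, adjusted p = 1.5e-06), and S100a11 from 251, 277 and 297 to 2360, 2619 and 3251 (log2 3.30 ± 0.14, adjusted p = 2.77e-06). S100a16 (log2 2.72), S100a10 (1.91), S100a13 (1.72) and S100a1 (1.15) rose less. None of these 7 had overlapping groups, but the share of all tested genes without overlap was not counted, so nothing is read from this. S100a13 passed the filter through its Tgfb samples, and with a mean of at least 1 it was also called (adjusted p = 0.000145). S100a4 lay under the filter, with 0.602, 1.58 and 0.195 TPM in controls and 3.16, 2.78 and 8.41 with Tgfb. With a mean of at least 1, a filter it passed through its Tgfb samples, it was called (log2 1.64, limma adjusted p = 0.0192). The overlapping Gm42674, at 0 in controls, had 1.53 to 4.60 TPM with Tgfb. Immune markers summed to 2.003 to 2.597 TPM in controls and 3.42 to 3.54 with Tgfb, and mesenchymal markers to 5.13 to 8.23 and 7.16 to 9.50 TPM, with Dcn and Lum at 0; their part in the S100a4 value was not tested.

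S100g had 69.1, 65.7 and 103 TPM in controls and 101, 122 and 98.4 with Tgfb, and the groups overlapped. Its log2 change of 0.45 ± 0.18 was not called (limma adjusted p = 0.0615), but it passed without control replicate III (log2 0.66, adjusted p = 0.00405) and with a mean of at least 50 (adjusted p = 0.0463). Vdr fell from 120 ± 8.0 to 19.6 ± 2.0 TPM (SD, n = 3 each; log2 -2.55, adjusted p = 1.74e-06), as it had with BMP2. Atp2b1 rose (log2 0.74, adjusted p = 0.00031), and Trpv6 was listed at 0 in all 6 samples.

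TPM is per transcript length, so levels can be ordered between genes in this table. In controls the order of mean TPM was S100a11 (275), S100a10 (263), S100a6 (135), S100g (79.3), S100a16 (23.1), S100a1 (20.4), S100a14 (18.1), S100a13 (4.33) and S100a4 (0.792). Neighbours in this order overlapped in range for S100a11 with S100a10, S100a6 with S100g and S100a1 with S100a14. With Tgfb, S100a6 was first (3848 ± 889, SD, n = 3), then S100a11 (2743 ± 458) and S100a10 (997 ± 200). S100a14 moved from the seventh place to the fourth. Together the 9 transcripts made up 0.0704% to 0.0949% of all TPM in controls and 0.687% to 1.01% with Tgfb. S100a6 and S100a11 made up 49.6% to 50.7% of that sum in controls and 76.5% to 79.1% with Tgfb.

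**Figure D4:**
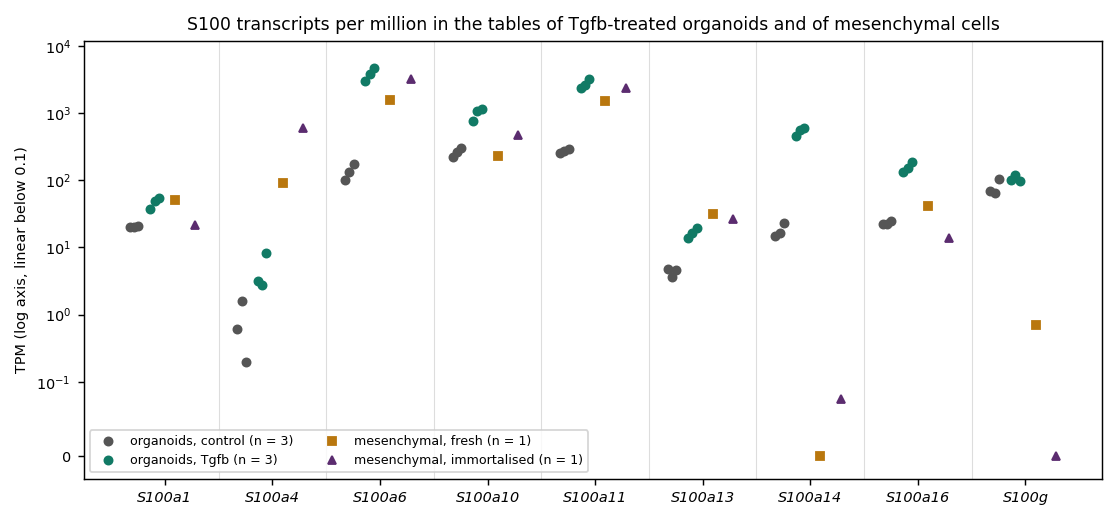
TPM (y axis, log scale, linear below 0.1) of the 9 S100 transcripts (x axis) in control and Tgfb-treated organoids (circles, 3 samples each) and in the fresh (square) and immortalised (triangle) mesenchymal sample. S100a6 and S100a11 are above 1500 TPM in Tgfb-treated organoids and in both mesenchymal samples, and S100a14 and S100g are at or near 0 in the mesenchymal samples. The organoid and mesenchymal tables were scaled separately.

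Among 18 partner genes of S100 proteins, 16 passed the filter in the BMP table. BMP2 raised 13 and lowered 1 (median log2 2.27), and BMP4 raised 9 and lowered 3 (0.80). BMP5 raised 10 and lowered 1 (0.96), BMP7 raised 11 and lowered none (1.19), and Tgfb raised 9 and lowered 2 of 12 tested (1.71). For Tgfb, Anxa1 (3.81 to 5.02 TPM in controls) and Ahnak (4.01 to 6.79) passed the filter through their Tgfb samples. There the filter favoured rises. Of all tested genes, BMP2 raised 36.8% and lowered 38.4%, and BMP4 raised 33.7% and lowered 31.4%. These shares were 16.5% and 9.87% for BMP5, 19.2% and 13.2% for BMP7, and 31.4% and 32.9% for Tgfb. Anxa1, the partner of S100a11, went from 724 ± 174 normalized counts in untreated organoids (SD, n = 4) to 61100, 61300, 45900 and 53000 with BMP2, a log2 of 6.28 ± 0.27 (limma adjusted p = 6.83e-13). With BMP4 it reached 1470, 1200 and 1800 (log2 1.05 ± 0.29), below the 4070 to 9630 of BMP5 and the 6560 to 10200 of BMP7, as S100a11 did. Anxa2, the partner of S100a10, rose by a log2 of 3.91 for BMP2, 1.98 for BMP4, 2.08 for BMP5, 2.42 for BMP7 and 3.50 for Tgfb. Ahnak, a large scaffold that the Anxa2 and S100a10 complex binds, rose by 3.31, 2.21, 2.18, 2.14 and 3.97 in the same order. Cacybp, the binding protein of S100a6, fell with BMP2 (log2 -0.87), BMP4 (-0.81), BMP5 (-0.28) and Tgfb (-0.53) and was not called with BMP7. Anxa11 rose with BMP2 (0.84) and fell with Tgfb (-0.44), and Ager, a receptor for extracellular S100 proteins, stayed at 14.4 normalized counts or less.

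Of 14 other EF-hand calcium sensors, such as calmodulins, all passed the filter. BMP2 raised 9 and lowered 4 (median log2 0.88), and BMP4 raised 12 and lowered 1 (0.94). BMP5 raised 5 and lowered 0, BMP7 raised 6 and lowered 1, and Tgfb raised 7 and lowered 2, with medians of 0.14, 0.11 and 0.29. Of all tested genes, BMP2 raised 36.8% and lowered 38.4%, and BMP4 raised 33.7% and lowered 31.4%. These shares were 16.5% and 9.87% for BMP5, 19.2% and 13.2% for BMP7, and 31.4% and 32.9% for Tgfb.

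Across the 20 samples of the BMP table, log2 levels of the 8 S100a genes correlated with each other at Pearson r from 0.847 (S100a4 and S100a10) to 0.989 (S100a6 and S100a14). S100g correlated with them at r from -0.31 to 0.033. These samples share 6 groups and a common scaling, so r describes mostly the group means. The tested genes most alike to each member were Tmco3 and Crb3 for S100a1, Itpripl2 and Kctd10 for S100a4, Ecm1 and Krt19 for S100a6, and Fbxo6 and Cystm1 for S100a10. They were the copy Gm12854 and Anxa1 for S100a11 (r = 0.996 each), Olfr650-ps1 and Tirap for S100a13, Anxa3 and Lrrfip1 for S100a14, and Krt8 and Capns1 for S100a16. For S100g they were Fth1 and Sult1b1 (r = 0.956 each).

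Of 9 further S100 genes, 5 passed the filter in the BMP table and 0 in the Tgfb table. Of these 5, S100a3, S100a5, S100a7l2 and S100b had control means under 10 and passed through treated groups where they were high, so the filter favoured rises. All 5 were called higher under BMP2 (36.8% of all tested genes), 4 under BMP4 (33.7%), 4 under BMP7 (19.2%) and 2 under BMP5 (16.5%), counts from which nothing is read about the list. S100a3 had at most 0.888 normalized counts in controls and 99.9, 83.1, 30.6 and 35.4 with BMP2, at least 24.2-fold higher against the floor of 3 reads. It overlaps S100a2 on the same strand in the annotation. S100a3 stayed at 1.19 or less with BMP4 but reached 6.39 to 12 with BMP5. S100a7l2 was at 0 reads in all 4 controls and reached 82.9, 63.9, 67.1 and 55.7 with BMP2 (at least 26.2-fold) and 47.4, 38.8 and 18 with BMP4 (at least 13.5-fold). It had 5.44, 5.47 and 6.74 with BMP7 (at least 2.29-fold) and at most 1.82 with BMP5. S100a5 was highest with BMP4, at 33.2, 43.3 and 28.7 against 3.32 to 8.26 in controls (log2 2.35 ± 0.41 SE, limma adjusted p = 5.54e-05). S100a7a rose under BMP2, BMP4, BMP5 and BMP7 by a log2 of 1.78 to 3.23, and S100b with BMP2 (2.99), BMP4 (1.82) and BMP7 (1.44). The BMP7 samples of S100b, at 16.3, 4.55 and 7.7, overlapped its controls (0.888 to 4.96). S100a2 and S100z were below the filter. With a mean of at least 1, which it passed through treated groups, S100z rose with BMP2 (log2 2.19, limma adjusted p = 0.00381). In the Tgfb table at that filter, which it passed through its Tgfb samples, S100a5 rose (log2 0.88, limma adjusted p = 0.0293). S100a8 and S100a9, the calprotectin subunits of neutrophils, did not exceed 1.79 normalized counts in any sample of the BMP table and were listed at 0 in the Tgfb table. Ly6g, of the same list of neutrophil markers, had means of 1.94 in controls of the BMP table and 26.1 under BMP2. Its means were 7.43 under BMP4, 7.35 under BMP5 and 14.5 under BMP7, so not all neutrophil markers stayed near 0.

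**Figure D5:**
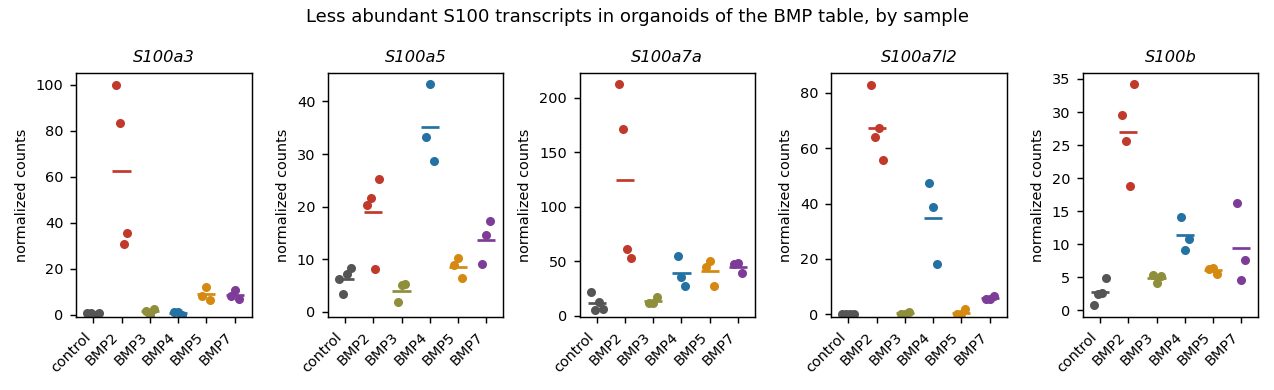
Normalized counts (y axis, linear) of 5 less abundant S100 transcripts by ligand (x axis) in the BMP table. Points are samples and horizontal lines are group means. BMP2 points are highest for S100a3, S100a7l2 and S100b, while S100a5 is highest with BMP4, and S100a3 and S100a7l2 differ in whether BMP4 or BMP5 samples leave the floor.

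The mesenchymal samples have no replicates, so their differences have no test. S100a4 was 91.9 TPM in the fresh and 611 TPM in the immortalised cells, a ratio of 6.65. S100a6 went from 1578 to 3223 (ratio 2.04), S100a10 from 227 to 466 (2.05) and S100a11 from 1509 to 2344 (1.55). S100a13 went from 31.3 to 26.8 (0.858), S100a1 from 50.1 to 21.7 (0.433) and S100a16 from 41.4 to 13.9 (0.335). Thus 3 of the 7 members with values above 1 TPM were at least 2-fold higher and 2 at least 2-fold lower, beside 4.13% and 6.49% of 8455 genes with a mean of at least 10 TPM and both values above 0. S100a6 sat at the 2-fold limit: with the median ratio of all genes set to 1 its ratio was 1.998, and 2 members, S100a4 and S100a10, passed. S100a14 was listed at 0 and 0.0775 TPM and S100g at 0.697 and 0, the 2 members near 0 in these cells. The row of Gm42674, which overlaps S100a4, went from 19.97 to 187 TPM. The 7 epithelial markers summed to 28.4 TPM in the fresh and 0.0868 in the immortalised sample, with Krt8 at 9.10 and 0 and Epcam at 0.161 and 0. Immune markers summed to 17.3 and 1.04 TPM, and the neutrophil transcript S100a8 stood at 3.85 and 0. Endothelial markers summed to 20.2 and 1.24 TPM, glial markers to 11.6 and 0.764 and muscle markers to 2436 and 2034, of which Des was at 197 and 1.13. These lists were lower in the immortalised sample, as S100a1 and S100a16 were, and the part of any of these cell types in the differences was not tested. The 8 mesenchymal markers were lower in the immortalised sample too, with sums of 17556 and 5536 TPM. Within them Pdgfra, the gene that marks the cells, went the other way, at 37.5 and 113 TPM.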

How the data were processed

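RNA-seq values of 28 samples were used as the authors deposited them, in 3 tables that the authors scaled separately. The BMP table holds a signal that, as the values show, the authors made by dividing each sample's gene counts by 1 factor: 100% of 180721 values at or below 20 reads were whole multiples of the worth of 1 read (within 0.02 reads or 0.5%). The other tables hold TPM in the authors' deposited files. Per the submitters' processing notes, Trim Galore, Salmon, DESeq2 and GRCm39 were used, with no role or version given. The design foresaw edgeR for raw counts. None were deposited, so limma 3.58.1 (R 4.3.3, intensity trend) was used on log2(value + 1), for genes with a mean of at least 10 (14746 of 29413 in the BMP table, all 6 groups in 1 fit, and 7880 of 55416 in the Tgfb table), two-sided, with Benjamini-Hochberg adjustment over all genes and a threshold of 0.05. A log2 change on this scale understates the change of low genes. Floors are 3 reads per library and allow for counting error alone (reads copied by PCR, with no molecular identifiers, are not separate molecules). edgeR 4.0.16 and DESeq2 1.42.0 on recovered reads, other filters, pseudocounts and scalings, a replicate block and each replicate left out were alternatives. The fits were tested on simulated data.

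Replicate numbers come from the sample titles. Same-numbered samples deviated together (every correlation over 0.1) for BMP3, BMP4, BMP5 and BMP7 against control, BMP4 against BMP7 and BMP5 against BMP7. Not all of them did for comparisons with BMP2 (lowest 0.018 against control, for replicate III) or for Tgfb (lowest -0.019). Named genes were the 9 members, every other S100 gene, a fixed subset of the partner and calcium absorption lists, and the 2 genes most correlated with each member. Pdgfra, Pdgfrb, Vim, Dcn, Lum, Col1a1, Col1a2, Col3a1, Ptprc, Itgam, Csf1r, Cd68, Adgre1, Tyrobp, Ly6g, Epcam, Krt8, Cdx2, Vil1 and Des were named from the marker lists after their values were seen, and Gm12854 and Gm42674 were likewise named after that. The members and lists were chosen with earlier results of these data known. Promoter windows are RefSeq's for GRCm38.p6, and copies were sought among GENCODE transcripts as sharing at least 50% of their 31-base words with a member.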

Additional observations from a re-analysis of the deposited data

Results flagged for a closer look

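S100a13 in BMP2 replicate VI, at 346 normalized counts, stood apart from the other 3 BMP2 samples, which lay between 262 and 271. The gap to its nearest neighbour was 0.893 of the group's range, above Dixon's 95% critical value for 4 samples. It was the only such value among 18 groups of 4 samples examined (9 transcripts in control and BMP2 samples), and chance flags about 1 in 20 groups. The change of S100a13 with BMP2 stayed between a log2 of 2.15 and 2.39 when any 1 control or BMP2 sample was left out.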

How the results depend on the processing

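Over 105 member values, 1874 alternative values were computed. Of these, 1818 counted as the same, 40 lost a call, 15 gained one and 1 turned sign. For tested values, the same means the same side of the threshold, with their direction where called. The mesenchymal ratios have no test and counted as the same when they moved by at most 1.5-fold. That includes S100a6, whose ratio went from 2.04 to 1.998. Of the 105 values, 87 were the same under every alternative run. The value that turned sign was S100a10 in BMP4 against BMP7, at a log2 of -0.0021 with quantile normalization (adjusted p = 0.99); the cause was not tested. The count of members that differ between BMP4 and BMP7 was 5, fell to 3 with no filter on low values, where more genes are tested, and ranged from 2 to 6 when each replicate was left out. For BMP5 against control the count of 8 ranged from 5 to 8, with 5 without BMP5 replicate VI. The other counts ranged over left-out replicates from 6 to 8 for BMP4, from 5 to 7 for BMP7 and from 6 to 8 for Tgfb, and stayed at 8 for BMP2. With the replicate block, the members called were 9 instead of 8 with BMP2, where S100g passed (log2 -0.49, limma adjusted p = 0.0388). For BMP2 against BMP7 they were also 9 instead of 8, with S100g passing (log2 -0.88, adjusted p = 0.00275). Not all numbers paired these samples: replicate III correlated at 0.018 between BMP2 and control and at -0.052 between BMP2 and BMP7. Apart from the S100a1 values given in the report, the block changed no other call of a member.

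Scaling every sample to the same total moved the median of all genes by -0.45 for BMP2 against control, -0.39 for BMP4 against control, -0.38 for BMP2 against BMP7 and -0.32 for BMP4 against BMP7, and edgeR moved the last by -0.11. Under the same total, the share of called genes that were higher was 31.8% instead of 48.9% for BMP2, 31.1% instead of 51.7% for BMP4, 48.7% instead of 59.4% for BMP7, 26.7% instead of 50.1% for BMP2 against BMP7 and 28.7% instead of 47.5% for BMP4 against BMP7. With quantile normalization it was 49.8% instead of 62.5% for BMP5 and 48.0% instead of 59.4% for BMP7. For BMP5 against BMP7, 2 genes were called by limma and 23 by DESeq2. The TPM tables keep no depth, and transcripts of a few reads in the BMP table, such as S100a4 and Trpv6, are limited by counting.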
